A study of Homo sapiens with 9 samples.

Results

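Iron handling in MDA-MB-231 cells was followed through 10 genes, FTL, FTH1, NCOA4, HMOX1, TFRC, STEAP3, SLC11A2, SLC40A1, ACO1 and IREB2, taken by gene name from the RNA-seq gene lists, the longest of which holds 27615 genes. The set was selected on the counts and FPKM of these same 9 libraries, with their differences between treatments already known, so their values and the number of them that meet a threshold are given as a description and no p-value is read for them. MDA-MB-231 is an established human breast cancer cell line. All 9 libraries were of this line and, by their labels, differed only in treatment, with 3 libraries of cells given the DMSO vehicle, 3 of cells given rimonabant, an antagonist of cannabinoid receptor 1, and 3 of cells given TXX-1-10, a compound derived from rimonabant. The dose and duration used for the sequenced cells, and whether the 3 libraries of a treatment came from separate cultures, are not named in the sources used here, so the errors below measure only the spread between these libraries.

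Cells take up iron bound to transferrin through the transferrin receptor, reduce it in endosomes, pass it into the cytosol, and either use it, store it inside the ferritin shell or export it. Heme oxygenase releases iron from heme. Control of these steps runs largely through messenger RNA: when iron is scarce, the iron regulatory proteins bind a short hairpin, the iron-responsive element, which blocks translation of ferritin messages when it lies in the 5′ untranslated region and protects the transferrin receptor message from decay when it lies in the 3′ untranslated region. Transcription of the ferritin and HMOX1 genes is also driven by the stress factor NRF2 and held down by BACH1.

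Each gene has a read count and an FPKM value, reads scaled by gene length and by the library total, in every library that lists it. The library totals behind the FPKM values ran from 17078370 to 17245379 in vehicle, from 17477838 to 18813662 in rimonabant and from 18394759 to 19277808 in TXX-1-10. As used here, the lists end at different points, so 4237 genes are listed for all 9 libraries. A gene missing from a list was not treated as 0 and cannot be assumed to have few reads. FTH1P2, a ferritin pseudogene, is missing from TXX-1-10 replicate 1, whose list reaches 6 reads near its end. It had 87 and 99 reads in TXX-1-10 replicates 2 and 3. Of the 10 genes, 6 are in all 9 lists, HMOX1, IREB2 and STEAP3 are missing from rimonabant replicate 1, and SLC40A1 is also missing from vehicle replicate 2. All 10 passed the minimum mean of 1 FPKM, SLC40A1 through the treated libraries, since its vehicle values are under 1. The cell line label was checked against markers. VIM, CD44, EGFR and KRT18 lay between 27.4 and 329 FPKM in all 9 libraries, while ESR1, PGR, CDH1, PTPRC and PECAM1 were listed in 4 or 5 libraries at no more than 0.172 FPKM, CDH1 at 0 in each.

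Rimonabant replicate 1 and TXX-1-10 replicate 3 stood apart from the other libraries of their treatments. Set against the mean of the other 2 libraries of its treatment, each had relatively more reads on short genes (Spearman rho of the log2 deviation against gene length -0.69 in both, across 4237 genes, which are not independent), and the median gene under 1500 bases was 0.28 and 0.29 higher on the log2 scale. FTL, the shortest of the 10 genes, deviated by 0.27 and 0.31 and FTH1 by 0.24 and 0.23 in these libraries, while the longer TFRC deviated by -0.13 in both. The differences of FTL, FTH1, HMOX1 and TFRC are given with and without them.

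**Figure D1:**
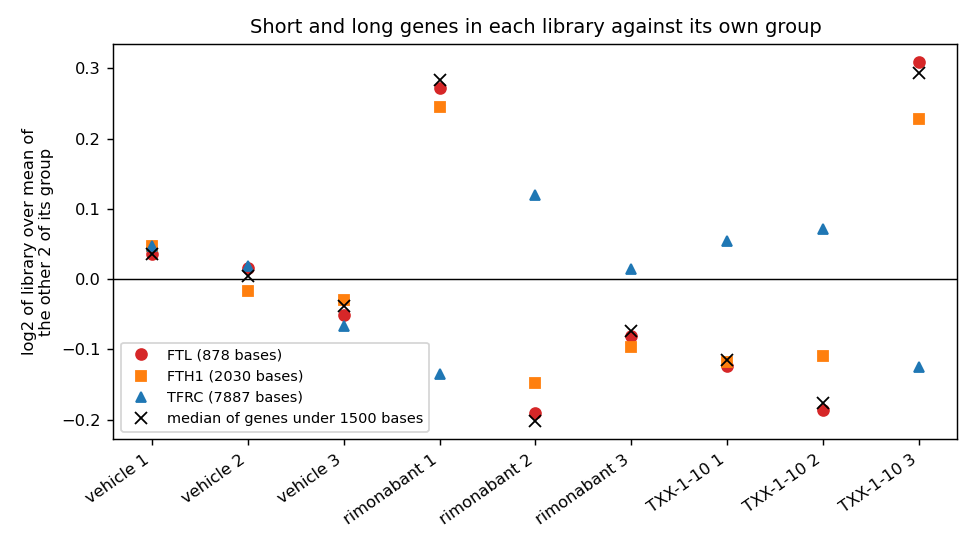
Log2 of each library over the mean of the other 2 libraries of its treatment (vertical axis) for the median gene under 1500 bases and for FTL, FTH1 and TFRC, with the 9 libraries along the horizontal axis. Rimonabant replicate 1 and TXX-1-10 replicate 3 are the libraries in which short genes, FTL (0.27 and 0.31) and FTH1 (0.24 and 0.23) sit highest and TFRC (-0.13 in both) lowest.

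The iron-responsive elements are shown because they separate the genes by the step at which iron acts on their messages. The GENCODE 29 transcripts (GRCh38) of every protein-coding gene were searched on the sense strand for C, any 5 bases, the loop CAGTGN and any 5 bases, in which the 5 bases on either side of the loop could pair, G with T allowed. This finds 7 sites in 4 of the 10 genes, against a site in 291 of 19684 protein-coding genes (1.48%). The pattern describes the hairpin known from ferritin and transferrin receptor messages, which are in the set, so this contrast was fixed by the choice of genes. A match is a description of sequence and not a measured binding site. The 29 bases printed are those around the loop, with the 6 loop bases in capitals, 5′ to 3′ on the strand of the gene.
FTH1, 5′ untranslated region, chr11:61967574-61967602, minus strand: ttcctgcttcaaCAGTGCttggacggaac
FTL, 5′ untranslated region, chr19:48965335-48965363, plus strand: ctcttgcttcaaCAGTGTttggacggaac
SLC40A1, 5′ untranslated region, chr2:189580661-189580689, minus strand: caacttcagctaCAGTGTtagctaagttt
TFRC, 3′ untranslated region, chr3:196050463-196050491, minus strand: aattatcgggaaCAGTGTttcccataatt
TFRC, 3′ untranslated region, chr3:196050510-196050538, minus strand: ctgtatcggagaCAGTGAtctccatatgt
TFRC, 3′ untranslated region, chr3:196050575-196050603, minus strand: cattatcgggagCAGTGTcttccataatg
TFRC, 3′ untranslated region, chr3:196050979-196051007, minus strand: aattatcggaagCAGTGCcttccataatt

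The sites of FTH1 and FTL, the heavy and light ferritin subunits, were identical at 26 of 29 positions, and the 4 TFRC sites matched one another at 18 to 25 of 29. The FTH1 site lies in 7 of its 8 coding transcripts, the FTL site in its 1 coding transcript, the TFRC sites in 3 of 4 and the SLC40A1 site in 1 of 5. No match to this pattern was found in the transcripts of HMOX1, NCOA4, IREB2, ACO1, SLC11A2 or STEAP3. All 5 pairs of the stem were required, so an element with a mismatch or bulge there would be missed. Lack of a match does not show that a gene lacks an element, or that TFRC has no more.

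Between TXX-1-10 and vehicle, the ferritin and heme oxygenase messages were higher and those of the transferrin receptor and the iron sensor ACO1 were lower. Of the 10 genes, 5 met both call thresholds (a log2 fold change of 1 or more in either direction and an edgeR adjusted p under 0.05), where 14.4% of the 11688 genes tested did so. FTL, FTH1 and HMOX1 were higher (6.72% of all genes) and TFRC and ACO1 lower (7.66%). Between rimonabant and vehicle 2 met them, FTL and SLC40A1, both higher, where the share of all genes was 2.33% (1.24% higher and 1.09% lower). For SLC40A1, which passed the FPKM minimum through the treated libraries, a difference was built into its being tested. In the direct comparison of the compounds, 2 met both thresholds, FTH1 and HMOX1, both higher with TXX-1-10, where the share was 7.28% (2.86% higher and 4.42% lower). By the adjusted p alone, at any fold, 8 of the 10 passed in each comparison, where 70.6%, 41.9% and 57% of all genes did. Because the genes were picked knowing these results, nothing is read from the counts. The median absolute log2 fold change of the 10 genes was 0.92, 0.41 and 0.50 in the 3 comparisons, beside 0.40, 0.21 and 0.29 over all genes tested. The first and second comparisons share the vehicle libraries, and each compound's libraries enter 2 comparisons.

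**Figure D2:**
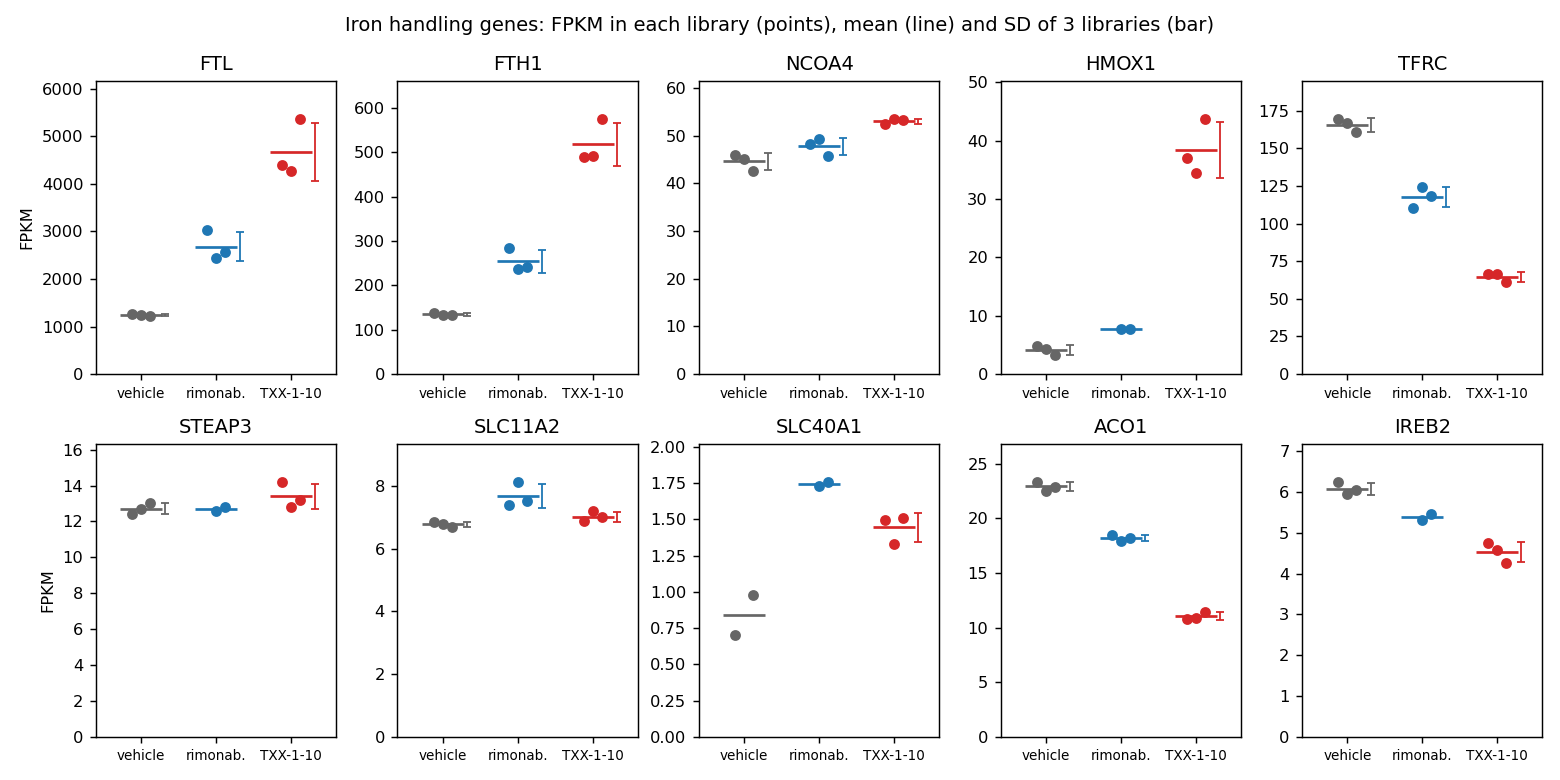
FPKM (linear axes from 0) of the 10 genes, one panel for each, with every library as a point, the mean of each treatment as a line and, where 3 libraries list the gene, the SD as a bar. FTL, FTH1 and HMOX1 step up and TFRC and ACO1 step down from vehicle through rimonabant to TXX-1-10, while STEAP3 overlaps between both compounds' libraries and vehicle.

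FTL (ENSG00000087086, chr19:48965301-48966878, plus strand) encodes the ferritin light chain, which helps form the iron core inside the ferritin shell. Its FPKM was 1262, 1251 and 1213 in vehicle, 3017, 2436 and 2563 with rimonabant, and 4385, 4259 and 5355 with TXX-1-10. The 3 treatments did not overlap, in the order vehicle, rimonabant, TXX-1-10. It was the most abundant of the 10 messages per length in each library, and its reads made up 0.106 to 0.111% of the library total in vehicle, 0.214 to 0.265% with rimonabant and 0.374 to 0.47% with TXX-1-10. The means were 1242 ± 26.1 (SD, n = 3), 2672 ± 306 (SD, n = 3) and 4666 ± 599 FPKM (SD, n = 3). On the log2 scale the difference was 1.91 (SE 0.11), or 3.76-fold, for TXX-1-10 over vehicle, and 1.11 (SE 0.10), or 2.15-fold, for rimonabant over vehicle. TXX-1-10 exceeded rimonabant by 0.80 (SE 0.10), or 1.75-fold, under the fold threshold. Without rimonabant replicate 1 and TXX-1-10 replicate 3, these differences were 1.80, 1.01 and 0.79. With a correction for gene length on all libraries, they were instead larger, at 2.07, 1.13 and 0.94.

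FTH1 (ENSG00000167996, chr11:61959718-61967660, minus strand) encodes the ferritin heavy chain, the subunit that oxidises ferrous iron so that it can be stored. Its FPKM was 137, 133 and 133 in vehicle, 283, 236 and 242 with rimonabant, and 490, 491 and 574 with TXX-1-10. Again no treatment overlapped another. The means were 134 ± 2.58 (SD, n = 3), 254 ± 25.6 (SD, n = 3) and 518 ± 48.5 FPKM (SD, n = 3). The log2 difference from vehicle was 1.95 (SE 0.09), or 3.86-fold, with TXX-1-10 and 0.92 (SE 0.08), or 1.89-fold, with rimonabant, which lies just under the fold threshold. Between the compounds it was 1.03 (SE 0.08), or 2.04-fold, just past that threshold. This last call was lost when rimonabant replicate 2 (0.98), rimonabant replicate 3 (0.997) or TXX-1-10 replicate 3 (0.95) was left out. It was kept without rimonabant replicate 1 and TXX-1-10 replicate 3 together, where the difference was 1.04. Without both of those libraries, the differences from vehicle were 1.87 with TXX-1-10 and 0.83 with rimonabant. With a correction for gene length on all libraries, the differences from vehicle were 2.09 and 0.91, and that between the compounds was 1.18.

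With TXX-1-10 the light and heavy subunit messages differed from vehicle by 1.91 and 1.95 on the log2 scale. The ratio of FTL to FTH1 FPKM was 9.24 ± 0.125 (SD, n = 3) in vehicle, 10.5 ± 0.183 (SD, n = 3) with rimonabant and 8.98 ± 0.328 (SD, n = 3) with TXX-1-10. The level of FTH1 per length has a limit of its own. Of its 2030 exon bases, 1267 (62.4%) are shared with BEST1 on the opposite strand, and whether strand was used in counting, or reads in shared bases were dropped, is not given in the sources used here. BEST1 had 5 to 25 reads in the 5 libraries that list it, against 4634 to 21462 for FTH1. Ferritin pseudogenes are near copies of these genes. Per the study's methods, expression levels used only uniquely mapped reads. Reads that match a gene and a copy equally would then be left out, and the counts of the copies do not measure that loss. Copies named FTH1P summed to 0.598 to 1.62% of the FTH1 count and copies named FTLP to 0.0581 to 0.084% of the FTL count in the libraries that list them. These sums are not alike between libraries, which list from 1 to 12 FTH1P and from 1 to 3 FTLP copies.

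NCOA4 (ENSG00000266412, chr10:46005088-46030714, minus strand) encodes the receptor that carries ferritin to lysosomes, where its iron is released. Its FPKM was 46.0, 45.1 and 42.7 in vehicle, 48.2, 49.3 and 45.8 with rimonabant, and 52.4, 53.4 and 53.2 with TXX-1-10. The TXX-1-10 libraries lay above all others, while rimonabant overlapped vehicle. The log2 difference from vehicle was 0.25 (SE 0.05) with TXX-1-10 and 0.10 (SE 0.05) with rimonabant, both far smaller than those of the ferritin genes.

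HMOX1 (ENSG00000100292, chr22:35380361-35394214, plus strand) encodes heme oxygenase 1, the inducible enzyme that opens the heme ring and releases iron, carbon monoxide and biliverdin. It had 197, 182 and 135 reads in vehicle, 350 and 348 in the 2 rimonabant libraries that list it, and 1713, 1527 and 1933 with TXX-1-10. As FPKM these are 4.80, 4.39 and 3.26 in vehicle, 7.74 and 7.81 with rimonabant, and 36.9, 34.5 and 43.7 with TXX-1-10. Every TXX-1-10 library lay far above the highest rimonabant library, and both rimonabant libraries lay above vehicle. HMOX1 had the largest difference of the 10 genes between TXX-1-10 and vehicle, 3.21 on the log2 scale (SE 0.12), or 9.25-fold. Rimonabant exceeded vehicle by 0.91 (SE 0.15), or 1.87-fold, and TXX-1-10 exceeded rimonabant by 2.30 (SE 0.13), or 4.94-fold. The rimonabant difference passed the fold threshold (1.02) when vehicle replicate 1 was left out. With TXX-1-10 replicate 3 left out together with rimonabant replicate 1, the differences were 3.11, 0.91 and 2.20.

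TFRC (ENSG00000072274, chr3:196027183-196082189, minus strand) encodes the transferrin receptor. Its FPKM was 169, 167 and 161 in vehicle, 110, 124 and 118 with rimonabant, and 66.2, 66.7 and 60.9 with TXX-1-10. The treatments did not overlap, in the reverse of the ferritin order. The means were 166 ± 4.51 (SD, n = 3), 118 ± 6.92 (SD, n = 3) and 64.6 ± 3.20 FPKM (SD, n = 3). The log2 difference from vehicle was -1.36 (SE 0.06), 2.56-fold lower, with TXX-1-10 and -0.49 (SE 0.06), 1.41-fold lower, with rimonabant. TXX-1-10 lay below rimonabant by -0.86 (SE 0.06) on the same scale, short of the fold threshold. Without the libraries that favour short genes the 3 values were -1.32, -0.45 and -0.87.

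The balance between the receptor and the storage message can be put as the ratio of TFRC to FTH1 FPKM within a library. It was 1.23 ± 0.0205 (SD, n = 3) in vehicle, 0.468 ± 0.0703 (SD, n = 3) with rimonabant and 0.126 ± 0.017 (SD, n = 3) with TXX-1-10. By these FPKM values, every vehicle library held more TFRC than FTH1 message per length (lowest ratio 1.21), and with either compound every library held less (highest ratio 0.526 with rimonabant and 0.136 with TXX-1-10). The FTH1 level carries the limit of its bases shared with BEST1, so where the ratio lies against 1 is uncertain. Without the libraries that favour short genes, the ratios were 0.526 and 0.489 with rimonabant and 0.135 and 0.136 with TXX-1-10. In bulk RNA, a change in the share of cells that express a gene and a change in the RNA of each cell cannot be told apart, here or for the other genes.

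STEAP3 and SLC11A2 act after the receptor, and neither met the thresholds in any comparison. STEAP3 (ENSG00000115107, chr2:119223831-119265652, plus strand) encodes the endosomal reductase that turns ferric into ferrous iron. Its FPKM was 12.4, 12.7 and 13.0 in vehicle, 12.6 and 12.8 with rimonabant, and 14.2, 12.8 and 13.2 with TXX-1-10, and both compounds overlapped vehicle. The log2 difference was 0.08 (SE 0.06) with TXX-1-10 and -0.00 (SE 0.06) with rimonabant. STEAP3 shares 500 of its 4562 exon bases (11.0%) with STEAP3-AS1 on the opposite strand. SLC11A2 (ENSG00000110911, chr12:50979401-51028566, minus strand) encodes DMT1, which moves ferrous iron across membranes. Its FPKM was 6.86, 6.80 and 6.70 in vehicle, 7.39, 8.13 and 7.52 with rimonabant, and 6.88, 7.20 and 7.01 with TXX-1-10. Rimonabant was the highest treatment, by 0.18 (SE 0.05) over vehicle on the log2 scale, and TXX-1-10 differed from vehicle by 0.05 (SE 0.05).

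SLC40A1 (ENSG00000138449, chr2:189560579-189583758, minus strand) encodes ferroportin, the iron exporter of the plasma membrane. It was the lowest of the 10 messages, with 52 and 73 reads in the 2 vehicle libraries that list it, 141 and 141 in the 2 rimonabant libraries, and 125, 106 and 120 with TXX-1-10. As FPKM these are 0.703 and 0.979 in vehicle, 1.73 and 1.76 with rimonabant, and 1.5, 1.33 and 1.51 with TXX-1-10. Both compounds lay above vehicle, and unlike ferritin and HMOX1 the rimonabant libraries were the highest. The log2 difference from vehicle was 1.05 (SE 0.18) with rimonabant and 0.78 (SE 0.17) with TXX-1-10, and between the compounds it was -0.27 (SE 0.15). Since SLC40A1 passed the FPKM minimum through the treated libraries, a difference from vehicle was built into its being tested. With so few reads the calls moved with single libraries. The rimonabant call was lost without vehicle replicate 1 (0.83) and with limma on log2(FPKM + 1), at 0.58, or on log2(FPKM + 0.1), at 0.99, and a TXX-1-10 call was gained without vehicle replicate 3 (1.04).

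ACO1 and IREB2 encode the iron regulatory proteins that bind iron-responsive elements. ACO1 (ENSG00000122729, chr9:32384603-32454769, plus strand) serves as the cytosolic aconitase when it holds an iron-sulfur cluster. Its FPKM was 23.3, 22.5 and 22.9 in vehicle, 18.5, 17.9 and 18.2 with rimonabant, and 10.8, 10.9 and 11.4 with TXX-1-10. The treatments did not overlap, and the spread within each was small, with means of 22.9 ± 0.401, 18.2 ± 0.306 and 11.0 ± 0.354 FPKM (SD, n = 3 each). The log2 difference from vehicle was -1.05 (SE 0.04) with TXX-1-10 and -0.33 (SE 0.04) with rimonabant, and -0.72 (SE 0.04) between the compounds. The TXX-1-10 value lies close to the fold threshold and fell short of it with TMM scaling (-0.96), DESeq2 (-0.95), limma on log2(FPKM + 1) (-0.99) and a correction for gene length (-0.98).

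IREB2 (ENSG00000136381, chr15:78437431-78501456, plus strand) encodes the iron regulatory protein that is degraded when iron is plentiful. Its FPKM was 6.24, 5.95 and 6.03 in vehicle, 5.31 and 5.46 with rimonabant, and 4.75, 4.57 and 4.26 with TXX-1-10. It followed the order of ACO1 with no overlap between treatments but in smaller steps, by -0.42 (SE 0.06) with TXX-1-10 and -0.17 (SE 0.06) with rimonabant on the log2 scale. The ratio of ACO1 to IREB2 FPKM ran from 3.74 to 3.79 in vehicle, was 3.33 and 3.37 in the 2 rimonabant libraries, and ran from 2.27 to 2.69 with TXX-1-10.

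**Figure D3:**
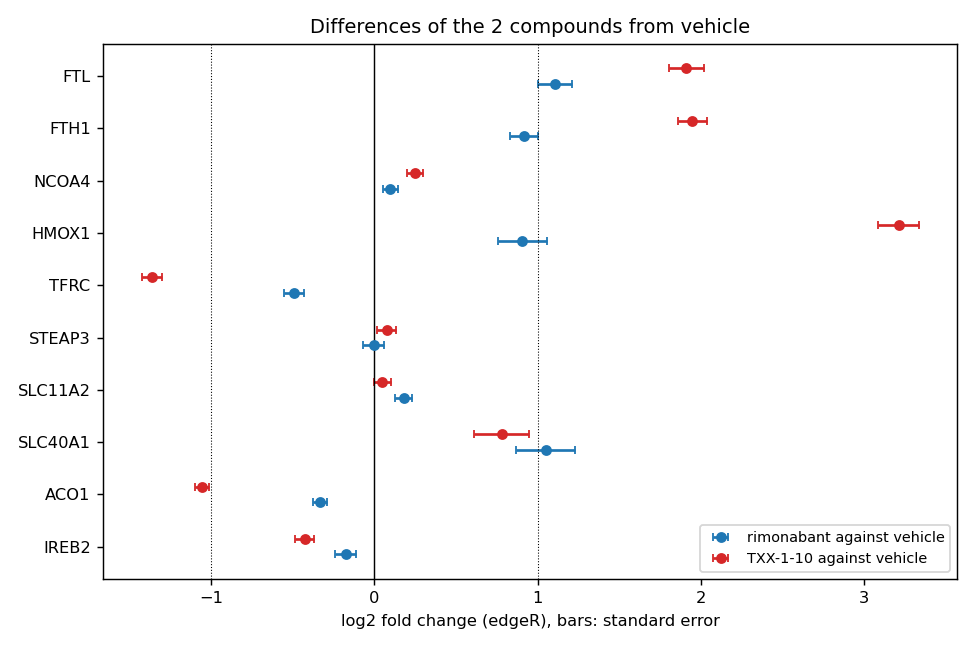
Log2 fold changes from the edgeR fit (horizontal axis) with bars of 1 SE for the 10 genes with rimonabant and with TXX-1-10 against vehicle, with dotted lines at the fold threshold of 1 in either direction. HMOX1 stands farthest to the right for TXX-1-10 against vehicle at 3.21, TFRC farthest to the left at -1.36, and STEAP3 and SLC11A2 lie near 0 with both compounds.

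Across the 10 genes the groups did not overlap for 9 between TXX-1-10 and vehicle, all but STEAP3, for 8 between rimonabant and vehicle, all but NCOA4 and STEAP3, and for all 10 between the compounds. Over all genes tested the shares without overlap were 75.6%, 65.1% and 66%. In vehicle the order of mean FPKM was FTL, TFRC, FTH1, NCOA4, ACO1, STEAP3, SLC11A2, IREB2, HMOX1 and SLC40A1. With TXX-1-10, FTH1 lay above TFRC by FPKM, with the limit on the FTH1 level given above. HMOX1 at 38.4 ± 4.74 FPKM (SD, n = 3) lay above ACO1 and STEAP3. Doses of rimonabant and TXX-1-10 are not named, so the differences between the compounds compare these cultures and not equal doses.

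Other genes of iron and heme metabolism were read from 8 lists of 108 genes, of which 104 appear in some library and 91 could be tested. With TXX-1-10, 15 rose and 3 fell past both thresholds (19.8%, beside 14.4% of all genes), with rimonabant 6 rose and 1 fell (7.69%, beside 2.33%), and 4 were higher and none lower with TXX-1-10 than with rimonabant (4.4%, beside 7.28%). LCN2 and PTGS2 are among the higher genes in each comparison, and FLVCR2 among those that rose with TXX-1-10. Each passed the FPKM minimum through treated libraries, so a difference was built into its being tested. These lists too were drawn up with earlier results known. The shares, directions and adjusted p-values given for their genes are therefore descriptions and not independent tests.

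The targets of NRF2 and BACH1 other than the genes above lay above vehicle with both compounds, in a list drawn up with earlier results known. All 10 of the list had a higher level with TXX-1-10 at an edgeR adjusted p under 0.05, and 9 of 10 with rimonabant. By adjusted p alone, 33.9% and 22.1% of all genes were higher and 36.7% and 19.8% lower. Past both thresholds, 5 of the list were higher with TXX-1-10 and 3 with rimonabant, where 6.72% and 1.24% of all genes were. Between the compounds 4 were higher and none lower, where the shares of all genes were 26% and 31%. OSGIN1, an oxidative stress response gene, had 3.39 ± 0.431 FPKM (SD, n = 3) in vehicle and 19.6 ± 2.06 (SD, n = 3) with TXX-1-10, a log2 fold change of 2.53 (SE 0.10, edgeR adjusted p = 4.32e-10). It rose by 1.35 with rimonabant (SE 0.12, edgeR adjusted p = 4.41e-06) and was higher with TXX-1-10 than with rimonabant by 1.18 (SE 0.10, edgeR adjusted p = 1.14e-06). SLC7A11, the cystine importer, rose by 1.52 with TXX-1-10 (edgeR adjusted p = 4.36e-07) and by 1.07 with rimonabant (edgeR adjusted p = 3.34e-05). TXNRD1, thioredoxin reductase, rose by 1.08 (edgeR adjusted p = 4.89e-08) and 1.01 (edgeR adjusted p = 9.75e-07). GCLC, the catalytic subunit of the rate-limiting enzyme of glutathione synthesis, rose by 1.41 with TXX-1-10 (edgeR adjusted p = 5.21e-09). Leaving out vehicle replicate 3 or rimonabant replicate 2 took the rimonabant value of TXNRD1 under the fold threshold, with a low of 0.98.

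Among the 12 regulators of iron and of HMOX1, 3 rose and none fell past both thresholds with TXX-1-10, where 6.72% of all genes rose and 7.66% fell, and by adjusted p alone 5 were higher and 3 lower, where the shares of all genes were 33.9% and 36.7%. MAFG and MAFF, small MAF proteins that pair with NRF2 or BACH1 on DNA, rose by 1.72 (SE 0.04, edgeR adjusted p = 3.39e-10) and 1.28 (SE 0.07, edgeR adjusted p = 7.27e-08). BACH1, the heme-binding repressor of HMOX1 and ferritin, rose by 1.10 (SE 0.08, edgeR adjusted p = 9.94e-08), from 4.81 ± 0.0924 (SD, n = 3) to 10.3 ± 1.13 FPKM (SD, n = 3). NFE2L2, which encodes NRF2 and is named here after its values were seen, was higher with TXX-1-10 by 0.70 (SE 0.07, edgeR adjusted p = 6.31e-06), under the fold threshold. MAFG, MAFF and BACH1 were also higher with rimonabant, by 0.91, 0.89 and 0.58, each under the fold threshold. By adjusted p alone, 5 regulators were higher and 5 lower with rimonabant, where 22.1% and 19.8% of all genes were. Past both thresholds with rimonabant, 1.24% of all genes rose and 1.09% fell. The 1 regulator past both was HIF1A, the oxygen-regulated factor, which fell by 1.32 (SE 0.06, edgeR adjusted p = 1.98e-07). It was also lower with TXX-1-10, at -0.88 (edgeR adjusted p = 2.28e-07), under the fold threshold.

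Of 7 heme breakdown and transport genes tested, 2 rose and none fell past both thresholds with TXX-1-10 (6.72% and 7.66% of all genes), and by adjusted p alone 3 were higher and 2 lower (33.9% and 36.7% of all genes). BLVRB, biliverdin reductase B, went from 21.1 ± 0.263 (SD, n = 3) to 54.5 ± 5.65 FPKM (SD, n = 3), a log2 fold change of 1.37 (SE 0.10, edgeR adjusted p = 8.98e-07). It was also higher with rimonabant, by 0.79 (SE 0.10, edgeR adjusted p = 0.000211), under the fold threshold. BLVRA, biliverdin reductase A, is named here after its values were seen. It differed from vehicle by 0.003 with TXX-1-10 (SE 0.08, edgeR adjusted p = 0.976). FLVCR2, a membrane transporter, rose by 1.003 (SE 0.16, edgeR adjusted p = 0.00019), a value on the threshold that was lost in 6 of 20 alternatives, among them those without vehicle replicate 3 or TXX-1-10 replicate 1. Its mean was 0.849 FPKM in vehicle and 0.942 with rimonabant, so it passed the minimum of 1 FPKM through the TXX-1-10 libraries, where it is high. A difference was thus built into its being tested. Of the 10 heme synthesis genes, 5 were lower and 1 higher with TXX-1-10 by adjusted p, where 36.7% of all genes were lower and 33.9% higher.

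In the list of iron uptake, reduction and export, 8 of 16 genes could be tested. LCN2, lipocalin 2, which binds iron-carrying siderophores, rose by 4.21 with TXX-1-10 (SE 0.28, edgeR adjusted p = 1.03e-07) and by 2.01 with rimonabant (SE 0.35, edgeR adjusted p = 0.00132), in a fit on 6 libraries and from a mean of 0.292 FPKM in the 2 vehicle libraries. LCN2 passed the minimum of 1 FPKM through the treated libraries, where it is high, so a difference was built into its being tested. The rimonabant call was lost with limma on log2(FPKM + 1), at 0.76, a scale that understates changes of low genes and also ended the TXX-1-10 calls of BACH1 (0.95) and DHODH (-0.79) and the rimonabant call of SLC7A11 (0.94). HFE, a partner of the transferrin receptor, fell by 1.01 with TXX-1-10 (SE 0.10, edgeR adjusted p = 2.19e-06), a call kept in 10 of 20 alternatives. That call was lost with TMM and with DESeq2, among others, and without vehicle replicate 1 or 2 or TXX-1-10 replicate 1 or 2. None of the 9 iron chaperone and mitochondrial iron transport genes tested met both thresholds in any comparison, while by edgeR adjusted p alone 3 were higher and 1 lower with TXX-1-10, where 33.9% and 36.7% of all genes were. The largest difference with TXX-1-10 was that of SLC25A37, mitoferrin 1, the mitochondrial iron importer, at 0.83 (SE 0.06, edgeR adjusted p = 6.52e-07). With rimonabant it was that of MCOLN1, a lysosomal cation channel, at 0.46 (SE 0.06, edgeR adjusted p = 0.000136), and between the compounds that of ABCB10, a mitochondrial membrane transporter, at -0.81 (SE 0.07, edgeR adjusted p = 9.64e-07).

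Past both thresholds with TXX-1-10, 6.72% of all genes rose and 7.66% fell. Of 23 iron-sulfur cluster genes tested, ISCU, the scaffold on which clusters are built, alone met both thresholds with TXX-1-10, rising by 1.01 (SE 0.08, edgeR adjusted p = 1.73e-06). That call was lost without TXX-1-10 replicate 3, with a low of 0.91 over the alternatives. By adjusted p alone 4 of the 23 were higher and 8 lower with TXX-1-10, where 33.9% of all genes were higher and 36.7% lower. With rimonabant none met both, 5 were higher and 1 lower by edgeR adjusted p (22.1% and 19.8% of all genes), and the largest difference was that of MMS19, a cluster targeting factor, at -0.35 (SE 0.05, edgeR adjusted p = 0.000239).

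Ferroptosis is a form of cell death that depends on iron and lipid peroxides. Of 12 genes of this list tested, 3 rose and 1 fell past both thresholds with TXX-1-10, where 6.72% of all genes rose and 7.66% fell. PTGS2, cyclooxygenase 2, rose by 4.51 (SE 0.08, edgeR adjusted p = 6.03e-12), from 0.604 ± 0.0308 (SD, n = 3) to 13.8 ± 0.442 FPKM (SD, n = 3). PTGS2 passed the FPKM minimum through the treated libraries, where it is high, so a difference was built into its being tested. Its calls and adjusted p-values, here and below, are descriptions. CHAC1, which degrades glutathione, rose by 2.93 (SE 0.11, edgeR adjusted p = 2.57e-10). SLC3A2, the partner chain of SLC7A11, rose by 1.96 (SE 0.07, edgeR adjusted p = 4.51e-09), and DHODH, a mitochondrial enzyme of pyrimidine synthesis, fell by 1.12 (SE 0.08, edgeR adjusted p = 6.3e-08). With rimonabant CHAC1 rose by 2.27 (SE 0.12, edgeR adjusted p = 1.27e-07) and PTGS2 by 1.001 (SE 0.12, edgeR adjusted p = 4.31e-05), the latter lost in 7 of 21 alternatives, among them those without vehicle replicate 1 or 2 or rimonabant replicate 2. By adjusted p alone, 6 genes of the list were higher and 6 lower with TXX-1-10, where the shares of all genes were 33.9% and 36.7%. Between the compounds, PTGS2 was higher with TXX-1-10 by 3.51 (SE 0.09, edgeR adjusted p = 1.14e-10) and SLC3A2 by 1.05 (SE 0.07, edgeR adjusted p = 6.17e-07), or 0.99 and under the fold threshold without TXX-1-10 replicate 3. LCN2 was higher by 2.19 (SE 0.22, edgeR adjusted p = 5.7e-06) and OSGIN1, above, completes the 4.

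**Figure D4:**
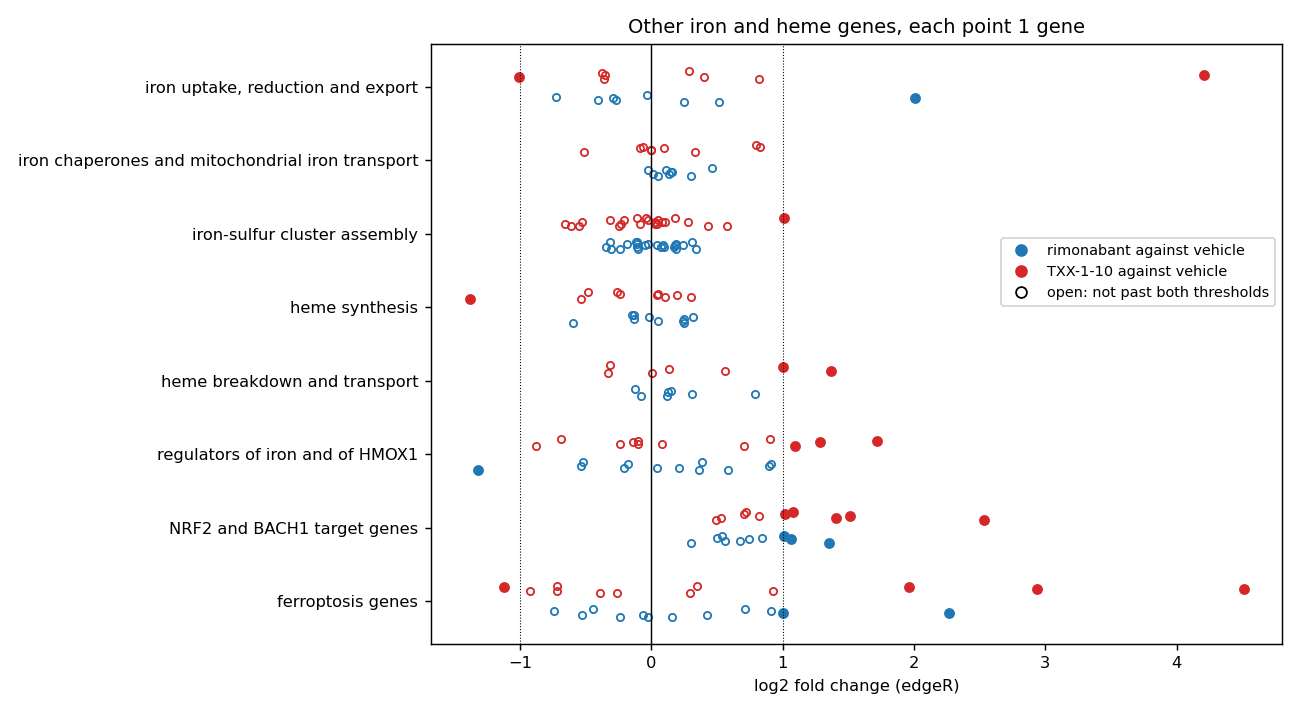
Log2 fold change from vehicle (horizontal axis, edgeR) of the 91 other iron and heme genes tested, 1 point for each gene and compound, in 8 lists, filled where both thresholds were met and with dotted lines at a log2 fold change of 1 in either direction. All NRF2 and BACH1 target genes lie to the right of 0, while the other lists spread to both sides, with LCN2 (4.21) and PTGS2 (4.51) farthest out for TXX-1-10.

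The genes whose log2 FPKM followed FTH1 most closely over the 9 libraries, by Pearson r among 4235 genes, were NEU1 (0.999), PSAP, SLC3A2, GNPDA1 and SPHK1 (0.998). NEU1, a lysosomal sialidase, differed from vehicle by 1.74 with TXX-1-10 and 0.81 with rimonabant on the log2 scale, beside 1.95 and 0.92 for FTH1. For HMOX1, over 8 libraries and 9368 genes, they were ZXDB (0.999), KDSR, OPTN, ASAH1 and GRAMD4 (0.998), with smaller differences from vehicle, such as 1.02 with TXX-1-10 for ZXDB against 3.21 for HMOX1. These r values are descriptions, since the points share 3 treatments and any gene that steps with them scores high.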

How the data were processed

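RNA-seq libraries were made, per the study's methods, by oligo(dT) selection and NEBNext Ultra kits and sequenced on an Illumina instrument. The submitters' processing notes name HISAT2 2.0.5 and featureCounts 1.5.0-p3. The authors deposited, for each gene and library, a whole-number count without normalization and an FPKM value, which is the count over gene length and a library total. Solving each FPKM for this total gave the library size used here. In lists that reach counts of 0, the listed counts did not sum to this total. The sum was above it in vehicle replicates 1 and 3 (17492638 against 17078370 and 17383157 against 17221591). It was below in rimonabant replicate 3 (17909256 against 18526413) and TXX-1-10 replicates 2 and 3 (16836181 against 18394759 and 17493322 against 18405221). With TMM, the median log2 fold change of all genes for TXX-1-10 against vehicle was 0.049 in place of -0.017. Gene coordinates of the 10 genes equal those of GENCODE 29 (GRCh38). An incomplete last line of a list was dropped.

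Groups follow the sample labels. All genes were fitted with edgeR 4.0.16 (estimateDisp, glmQLFit, glmQLFTest) in R 4.3.3 with 1 mean for each treatment, and p-values were adjusted by Benjamini-Hochberg over all genes of a fit. Each gene was read from the fit on the largest set of libraries that list it, with 9 (4236 genes), 8 (9369), 7 (11200) or 6 (11693) libraries, at a mean FPKM of at least 1. SE was taken as the log2 fold change divided by the root of F, an approximation. In simulated data all 200 genes changed 3-fold between TXX-1-10 and vehicle were recovered with 0 false calls, in the fits on 9 libraries (4236 genes) and on 8 (9369 genes). The simulation gave every gene the same dispersion and had no length trend and no outlying library. It therefore checks the code and does not test calls close to the fold threshold. Where a treatment had 2 libraries listing a gene, no SD is given.

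The 10 genes and all lists were chosen with earlier results of these data known. Named are the 10 genes, from each other list at most 4 called genes with the largest change in each comparison (the largest change where none was called), and the 5 genes most like FTH1 and HMOX1, except where stated and except for 1 gene that is not reported here. Alternatives were TMM, DESeq2 1.42.0, limma 3.58.1 on log2(FPKM + 1) or log2(FPKM + 0.1), no FPKM minimum, a minimum of 5, a lowess correction for gene length (span 0.3), the replicate number as a block, and libraries left out. Plots were drawn with matplotlib 3.10.9, and tables and the site search used scipy 1.17.1, numpy 2.4.6 and pandas 2.3.3 under Python 3.11.15.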

Additional observations from a re-analysis of the deposited data

How the results depend on the processing

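Each result was recomputed under up to 21 alternatives, and no log2 fold change past the thresholds changed sign. Of 627 alternative values for the 10 genes, 48 moved by over 1 SD of log2 FPKM between libraries of a treatment. FTL, FTH1, HMOX1 and TFRC kept their TXX-1-10 against vehicle call in all 21. Between rimonabant and vehicle, 1 of the 10 genes in place of 2 met both thresholds with limma on log2(FPKM + 1), with limma on log2(FPKM + 0.1) and with a mean FPKM of at least 5, which leaves SLC40A1 out, and 4 in place of 7 other iron and heme genes did so with limma on log2(FPKM + 1). That pseudocount took the calls over all genes from 1681, 272 and 851 in the 3 comparisons to 1077, 108 and 515. With 1 library left out in turn, the 10 genes gave 5 to 6 calls for TXX-1-10 against vehicle, 2 in each case for rimonabant against vehicle and 1 to 2 between the compounds, and the other iron and heme genes gave 16 to 18, 5 to 7 and 3 to 5. Samples share only a replicate number. Deviations of same-numbered libraries correlated between -0.10 and 0.04 for compound and vehicle and at -0.79, 0.78 and -0.57 for the compounds, and 1 of 9 libraries correlated best with its own number in both other treatments. With the replicate block, 5, 2 and 2 of the 10 genes and 17, 7 and 4 of the other genes met both thresholds, and with the block and the length correction 4, 2 and 2, and 18, 6 and 4. Low levels in vehicle limit SLC40A1, LCN2, FLVCR2 and PTGS2, each under 1 FPKM there.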
